A study of Homo sapiens with 3 samples.

Results

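YTHDC1 occupancy was examined at 10 genes of the actin and microtubule cytoskeleton, out of 20163 protein-coding genes. The 10 were chosen by name, with earlier results of these data known: ACTB, ACTG1, ACTN4, CFL1, PFN1, TUBA1A, TUBA1B, TUBA1C, TUBB and TUBB4B. A peak was assigned to a gene if it overlapped the gene, or the 1000 bases on either side of it, by 1 base or more. This gave 14 of the 6368 deposited peaks, with 1 peak shared by TUBA1A and TUBA1C. The data are YTHDC1 ChIP-seq from A549, a human cell line established from a lung adenocarcinoma, in 3 samples labelled as replicates of a single wild-type group with no knockdown or treatment. The authors pooled the reads of the replicates before calling peaks. Each peak therefore has a single value, with neither a spread over replicates nor a test over samples, and the sequencing depth is not known. Neither an input nor an IgG library was analysed here, so YTHDC1 occupancy cannot be told apart from signal that a control library would also show.

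Actin and tubulin are the subunits of the main filaments of the cytoskeleton. ACTB and ACTG1 encode the cytoplasmic actins, whereas CFL1 and PFN1 encode cofilin and profilin, which take filaments apart and supply monomers to growing ends. Alpha and beta tubulins pair into the dimers that build microtubules. Most of these genes are short and are used by nearly every cell. YTHDC1 is a nuclear reader of N6-methyladenosine (m6A) in RNA, and a peak in ChIP-seq marks DNA recovered with the protein, directly or through RNA and other proteins nearby.

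Of the 10 genes, 7 carried at least 1 peak, against 25.1% of all protein-coding genes and 27 of 96 other cytoskeletal genes (28.1%). Earlier results were known when the 10 were chosen, so this contrast cannot be told apart from an effect of the choice. None of the 17 other actins, alpha tubulins and beta tubulins had a peak. Long genes have more room for peaks. Among the 9 of the 10 genes whose canonical transcript is under 10 kb, 6 had a peak within that transcript or 1000 bases around it, against 18.3% of the 5842 protein-coding genes of that length. The peaks fell at both ends of the genes. At annotated starts, within 200 bases, 4 genes had a peak, namely ACTN4, TUBA1A, TUBA1B and TUBA1C (all protein-coding genes, 15.7%). Within 200 bases of the canonical 3' end a peak was found at TUBB4B only (all protein-coding genes, 1.14%). A further position became apparent after the peaks were seen. ACTB, PFN1, TUBA1B and TUBB4B each had a peak in the 1000 bases beyond the canonical 3' end and within 200 bases of no annotated start. This was the case for 4 of the 10 genes, for 3 of the 96 other cytoskeletal genes (3.12%) and for 0.915% of 19881 protein-coding genes with a canonical transcript. Starts of other genes lay 316 bases from the TUBA1B peak and 401 bases from the PFN1 peak, and a wider exclusion around starts was not tried. ACTG1, CFL1 and TUBB had no peak.

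**Figure D1:**
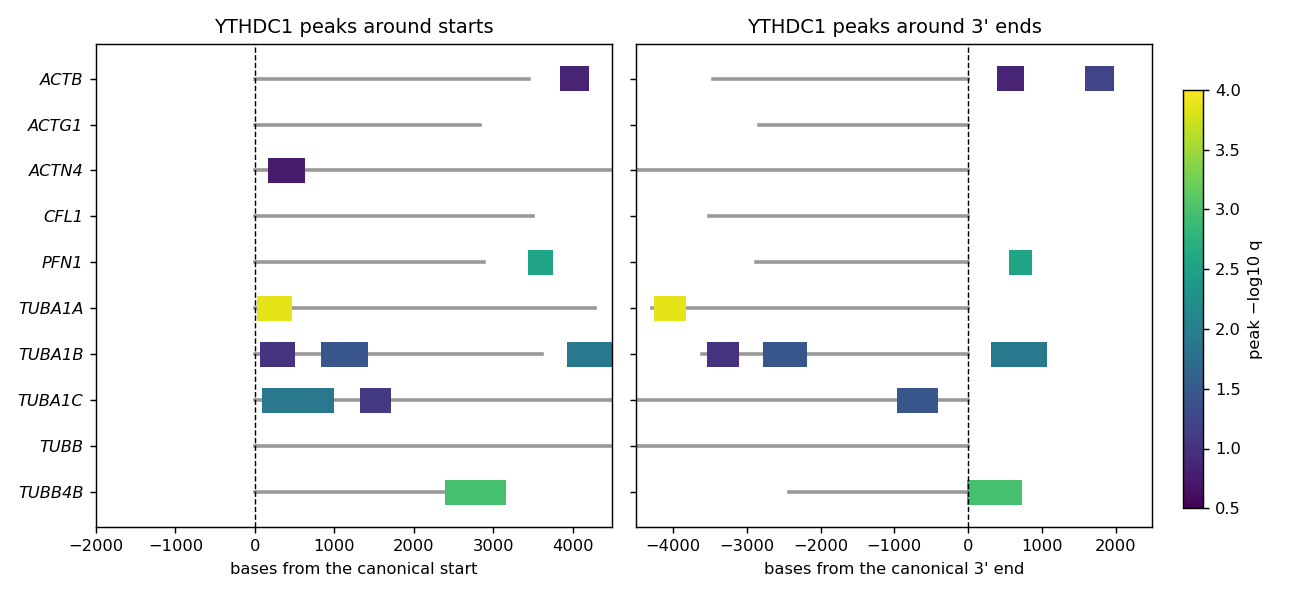
Peaks of the 10 genes (members) drawn to scale around the canonical start (left) and the canonical 3' end (right), in bases, with the direction of transcription to the right. Grey lines are canonical transcripts and boxes are peaks coloured by −log10 q. Boxes just right of the start line belong to ACTN4, TUBA1A, TUBA1B and TUBA1C, and boxes within 1000 bases right of the 3' end line to ACTB, PFN1, TUBA1B and TUBB4B. The ACTB peak at −25947, the TUBA1C peak at −76250 and the ACTN4 peak at 36298 bases from the start lie outside the range.

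**Figure D2:**
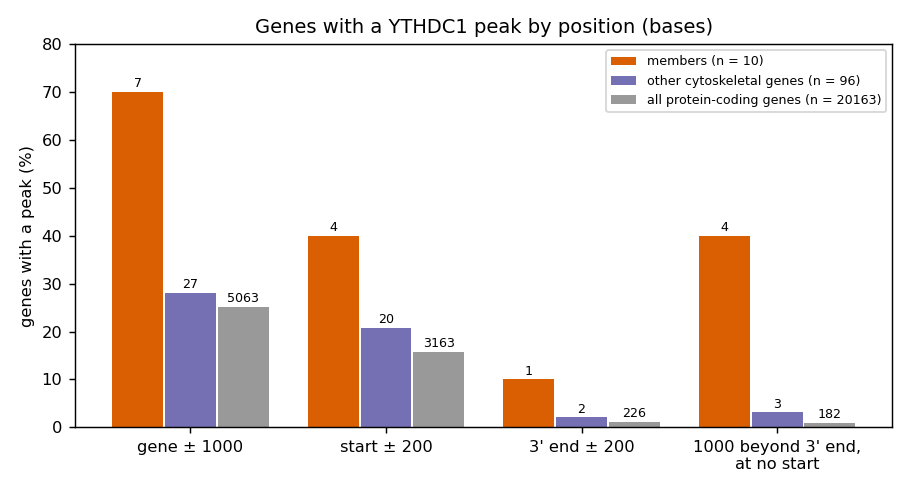
Percentage of genes with a peak in the gene itself or up to 1000 bases away, within 200 bases of an annotated start, within 200 bases of the canonical 3' end, and in the 1000 bases beyond that end at no start. Bars are the 10 genes (members), 96 other cytoskeletal genes and all protein-coding genes (20163, or 19881 for both 3' end positions), with the number of genes above each bar. The 10 genes and all protein-coding genes were furthest apart as a ratio beyond the 3' end, with 4 of 10 genes against 0.915%. That position was chosen after the peaks of the 10 genes were seen.

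The sequences under the peaks show how the positions differ. Below, 300 bases from the middle of 5 peaks are given 5' to 3' on the strand of the gene (hg19), 1 line each, from the alpha tubulin starts, the regions beyond the 3' ends of TUBA1B and TUBB4B, and the intron of ACTN4. Capitals mark CpG dinucleotides, except in the ACTN4 sequence, where they mark a TGANTCA match, the letters bound by AP-1 factors. The stretches cover chr12:49524744-49525043 (minus strand), chr12:49659261-49659560 (plus), chr12:49520722-49521021 (minus), chr9:140138367-140138666 (plus) and chr19:39174438-39174737 (plus), in this order.
TUBA1B start peak: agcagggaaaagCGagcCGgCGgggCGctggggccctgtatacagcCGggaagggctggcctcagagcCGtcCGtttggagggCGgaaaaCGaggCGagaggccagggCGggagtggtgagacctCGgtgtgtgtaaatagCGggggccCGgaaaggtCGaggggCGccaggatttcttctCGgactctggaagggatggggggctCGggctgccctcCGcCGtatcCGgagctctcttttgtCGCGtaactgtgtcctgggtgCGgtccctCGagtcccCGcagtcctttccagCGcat
TUBA1C start peak: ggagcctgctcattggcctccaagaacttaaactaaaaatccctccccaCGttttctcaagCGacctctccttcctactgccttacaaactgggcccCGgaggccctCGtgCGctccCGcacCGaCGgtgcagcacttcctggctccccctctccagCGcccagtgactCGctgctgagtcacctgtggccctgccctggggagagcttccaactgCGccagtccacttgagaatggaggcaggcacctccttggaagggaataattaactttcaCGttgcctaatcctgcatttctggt
TUBA1B peak beyond the 3' end: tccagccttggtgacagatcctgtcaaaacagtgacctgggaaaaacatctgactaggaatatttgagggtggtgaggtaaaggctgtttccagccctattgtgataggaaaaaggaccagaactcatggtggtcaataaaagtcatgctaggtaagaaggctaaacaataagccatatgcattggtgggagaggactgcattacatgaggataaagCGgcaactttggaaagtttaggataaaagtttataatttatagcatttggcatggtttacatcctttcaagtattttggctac
TUBB4B peak beyond the 3' end: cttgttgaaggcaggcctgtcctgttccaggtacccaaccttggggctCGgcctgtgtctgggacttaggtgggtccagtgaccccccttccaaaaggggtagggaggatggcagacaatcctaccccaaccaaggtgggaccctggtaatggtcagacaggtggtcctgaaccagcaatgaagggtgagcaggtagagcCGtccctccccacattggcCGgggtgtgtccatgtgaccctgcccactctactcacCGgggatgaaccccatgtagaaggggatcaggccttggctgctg
ACTN4 intron peak: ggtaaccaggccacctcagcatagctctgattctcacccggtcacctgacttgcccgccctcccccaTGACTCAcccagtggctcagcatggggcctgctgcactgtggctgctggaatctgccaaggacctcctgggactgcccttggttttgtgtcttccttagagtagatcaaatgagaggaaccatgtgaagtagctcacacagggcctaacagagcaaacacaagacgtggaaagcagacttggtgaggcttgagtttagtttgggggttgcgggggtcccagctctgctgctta
The TUBA1B and TUBA1C start stretches held 27 and 12 CpG dinucleotides, whereas the stretches beyond the 3' ends of TUBA1B and TUBB4B held 1 and 4. The ACTN4 stretch held 1 TGANTCA match.

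ACTB, which encodes beta-actin, had 3 peaks and none at its own starts (ENSG00000075624.17, chromosome 7, minus strand, 5566040 to 5603533, canonical transcript 5566779 to 5570232). All coordinates are on hg19. The value that the authors' caller wrote for each peak is taken as −log10 q, on which a q-value of 0.05 stands at 1.301. The peak from 5566028 to 5566386 was 359 bases wide, began 393 bases beyond the canonical 3' end and overlapped longer annotated ACTB transcripts, reaching just past the outermost annotated end. Its −log10 q was 0.852, and only 14.2% of all peaks had the same value or a lower one. The peak from 5564805 to 5565189 was 385 bases wide, lay outside the gene by 851 bases and had a −log10 q of 1.20. It was also the ACTB peak with the most repeated sequence: 26.8% of its 31-mers occur more than once in the assembly. The largest −log10 q of the gene, 2.16, belonged to a peak of 638 bases from 5595861 to 5596498. That peak lay within the annotated ACTB gene. It overlaps the start of ENSG00000272719, a gene on the opposite strand, and its midpoint lay upstream of the canonical ACTB start, at −25947 bases. Thus the ACTB peak at a start is at the start of another gene, and both peaks on the 3' side had q-values above 0.05 (0.0631 and 0.141).

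ACTG1, which encodes the other cytoplasmic actin, had no peak in a gene of 14.4 kb with 25 annotated transcripts (ENSG00000184009.13, chromosome 17, minus strand, 79476439 to 79490873). The nearest peak was 42967 bases away. The peak-free interval around ACTG1 spanned 216 kb and held 4 protein-coding genes in all. The median interval between neighbouring peaks was 133 kb, but a long interval is more likely to hold a given gene than a short interval. ACTB and ACTG1 had similar shares of repeated 31-mers over their canonical transcripts (22.7% and 18.8%). The remaining actins, ACTA1, ACTA2, ACTC1 and ACTG2, which form the filaments of muscle cells, had no peak either.

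The actin-binding proteins showed 3 different pictures. ACTN4 encodes an alpha-actinin that crosslinks actin filaments (ENSG00000130402.14, chromosome 19, plus strand, 39138289 to 39222229), and 2 peaks lay in intron 1 of its 21-exon canonical transcript. The first, from 39138457 to 39138914, was 458 bases wide, began 168 bases downstream of the canonical start and overlapped the start windows of 7 ACTN4 transcripts. Its −log10 q of 0.754 was the lowest of the 14 peaks and ranked 6015 among 6368. The second, from 39174354 to 39174821, was 468 bases wide with its midpoint 36298 bases into the gene. Its −log10 q was 3.31, rank 412, the second highest of the 14, although it touched no annotated start. It also overlaps ENSG00000267375, annotated on the opposite strand. So the peak at the ACTN4 start was among the weakest of the whole set and the peak inside its first intron among the strongest.

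PFN1, encoding profilin, is 3.41 kb long (ENSG00000108518.8, chromosome 17, minus strand, 4848947 to 4852356) and had a single peak, from 4848076 to 4848391. The peak was 316 bases wide, the narrowest of the 14, and lay wholly beyond the 3' end, from 556 to 871 bases past it. Its −log10 q was 2.54, rank 834, and 86.9% of all peaks were at or below it. RNF167, which encodes a ubiquitin ligase and is transcribed towards PFN1, covers the same bases. The nearest RNF167 start was 401 bases from the peak, outside the start window. Which of the 2 converging genes the peak belongs to cannot be told apart. CFL1, encoding cofilin, had no peak (ENSG00000172757.13, chromosome 11, minus strand, 65590493 to 65629497), and the nearest was 28773 bases away. Its peak-free interval spanned 110 kb, shorter than the median interval, and held 7 protein-coding genes.

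The alpha tubulin genes TUBA1A, TUBA1B and TUBA1C lie next to each other on chromosome 12 and held 7 of the 14 peaks. From 1000 bases beyond the outermost gene ends (49520565 to 49669383, 149 kb) the stretch held 8 peaks, or 53.8 per Mb, against 2.89 per Mb over the whole of chromosome 12. The stretch was bounded by the chosen genes and was not compared with other gene clusters. The eighth peak, from 49547225 to 49547507, belonged to none of the 3 genes and had a −log10 q of 0.779.

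**Figure D3:**
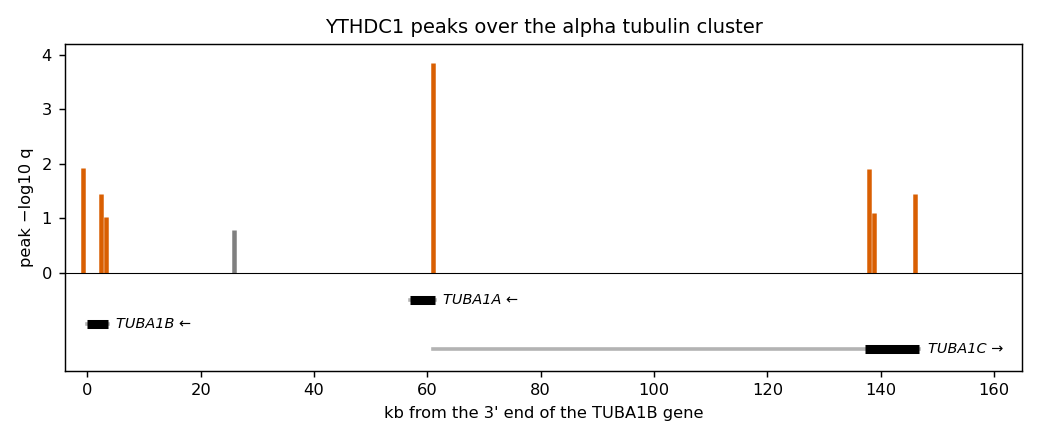
Midpoints of the 8 peaks across the alpha tubulin cluster in kb from the 3' end of TUBA1B, with −log10 q as height. Orange marks the 7 peaks of TUBA1A, TUBA1B and TUBA1C, grey marks the 1 other peak, black bars are canonical transcripts, grey lines are annotated gene spans and arrows give the direction of transcription. Peaks stand at the canonical starts of all 3 genes, and the shared TUBA1A and TUBA1C peak is the highest at 3.85.

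TUBA1A encodes the alpha tubulin known for its role in neurons (ENSG00000167552.15, minus strand, 49578469 to 49582863). Its single peak, from 49582400 to 49582830, was 431 bases wide and had the highest −log10 q of the 14, 3.85 (rank 290). It began 33 bases downstream of the canonical TUBA1A start and its midpoint was 248 bases downstream, in intron 1. The same peak covers the start of TUBA1C-205, an alternative TUBA1C transcript that reads in the other direction, and its midpoint is at −76250 bases from the canonical TUBA1C start. The 2 starts share this peak, which cannot be assigned to either.

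TUBA1B had 3 peaks in and around a gene of 3.62 kb (ENSG00000123416.15, minus strand, 49521565 to 49525180). The peak at the start, from 49524678 to 49525110, was 433 bases wide, began 68 bases downstream of the canonical start and had a −log10 q of 1.03. It also overlaps a start of TUBA1B-AS1, an antisense gene, and cannot be assigned to either. The next, from 49523750 to 49524348, was 599 bases wide with its midpoint 1129 bases downstream, also in intron 1, and had 1.44. It overlapped the start window of the alternative transcript TUBA1B-205. The third, from 49520495 to 49521249, was 755 bases wide, lay 316 bases beyond the 3' end and had 1.92, the highest of the 3. Hence −log10 q at TUBA1B was higher beyond the 3' end than at the start. TUBA1B-AS1, transcribed in the opposite direction, has annotated starts inside TUBA1B and at its 3' end. The nearest of these was 316 bases from the third peak, outside the start window.

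TUBA1C, the longest of the 3 with an annotated span of 85.9 kb and a canonical transcript of 9.52 kb (ENSG00000167553.17, plus strand, 49582519 to 49668383), had 4 peaks including the shared one. At its canonical start, a peak from 49658958 to 49659863 was 906 bases wide, the widest of the 14 and rank 202 of all peaks. It began 93 bases downstream of the start and had a −log10 q of 1.90. A second peak in intron 1 (49660193 to 49660581) was 389 bases wide with 1.09, and 19.2% of its 31-mers were repeated. The last, from 49667413 to 49667969, was 557 bases wide with 1.44 and lay in the 3' UTR, in exon 4 of 4, and it ended 414 bases before the 3' end. TUBA1C was the gene with peaks at both ends of its canonical transcript and none beyond the 3' end.

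The beta tubulins TUBB and TUBB4B differed. TUBB4B, only 2.42 kb long (ENSG00000188229.6, chromosome 9, plus strand, 140135739 to 140138159), had a peak from 140138138 to 140138895. The peak was 758 bases wide, overlapped the last 22 bases of the gene and reached 736 bases past it. Its −log10 q of 2.97 ranked 555, so that 91.3% of all peaks were at or below it. No peak lay at the TUBB4B start. FAM166A, on the opposite strand, also overlaps this peak. TUBB, whose product is the main beta tubulin of many dividing cells, had no peak (ENSG00000196230.14, chromosome 6, plus strand, 30685212 to 30693315). The nearest was 2.24 Mb away. TUBB sits in a peak-free interval of 5.31 Mb (28442217 to 33756517) that spans the major histocompatibility complex and holds 188 protein-coding genes, more than any other interval between neighbouring peaks. None of the 188 had a peak within 1000 bases. The absence of a TUBB peak cannot be told apart from the absence of peaks across this whole interval, whose cause was not tested.

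Each of the 4 genes had a peak just downstream of its canonical start. The midpoints were 248 (TUBA1A), 284 (TUBA1B), 396 (ACTN4) and 545 (TUBA1C) bases downstream of the canonical start, and each peak began past the start, by 33 to 168 bases. Measured from the nearest annotated start of the same gene the order is less uniform, since the ACTN4 midpoint is at −148 bases from an alternative ACTN4 start and that of the TUBA1A peak is at 67 bases from its nearest start. The second TUBA1B peak, at 1129 bases from the canonical start, counts as a start peak only through TUBA1B-205, from whose start its midpoint is at −153 bases. Among 2732 start peaks with their midpoint within 1000 bases of a canonical protein-coding start, the median midpoint was 130 bases downstream, 31.7% lay as far downstream as the TUBA1A peak or farther, 40.6% covered the start itself and 41.1% lay wholly downstream. By midpoint, 7 of the 14 peaks were in intron 1 of the canonical transcript, 5 beyond its 3' end and 1 in its 3' UTR. The remaining 1, at ACTB, was upstream of the canonical transcript but within the annotated gene. The peaks in intron 1 include the start peaks of ACTN4, TUBA1A, TUBA1B and TUBA1C described above. These classes were not counted over all peaks, so whether their shares are unusual was not tested.

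Beyond the 3' end, midpoints of the 4 nearest peaks were at 357 (TUBB4B), 572 (ACTB), 693 (TUBA1B) and 714 bases (PFN1). In the window from 500 to 1000 bases, peaks away from starts had their midpoint at 3 of the 10 genes, at 3.12% of the other cytoskeletal genes and at 0.377% of all protein-coding genes. These 3, ACTB, TUBA1B and PFN1, are among the 4 above. In the 500 bases just before the 3' end, none of the 10 genes had a midpoint, against 0.357% of all genes. From 1000 to 500 bases before it, 1 of the 10 did, TUBA1C, against 0.236%. With 10 genes, a count of 0 cannot be told apart from a share this small. Extending the window to 2000 bases beyond the end kept the number at 4, against 1.38% of all genes. The −log10 q of these 4 peaks was 0.852 at ACTB, 1.92 at TUBA1B, 2.54 at PFN1 and 2.97 at TUBB4B, and 3 of them had a q-value under 0.05. Transcription was not measured in these data, and the comparison was not matched for how strongly genes are expressed.

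The 14 peaks were wider at the median than the whole peak set. Their median width was 463 bases (quartiles 399.5 and 628, range 316 to 906), against 348 bases for all peaks, and 4 were at least 600 bases wide (28.6%, against 13.5%). The median −log10 q was 1.67 (range 0.754 to 3.85), against 1.33. A q-value under 0.05 was reached by 9 of the 14 (64.3%, against 52.1%), and a −log10 q of at least 2 by 5 (35.7%, against 22.9%). The 8 tubulin peaks had a median width of 578 bases and 6 had a q-value under 0.05. The 6 peaks of ACTB, ACTN4 and PFN1 had a median width of 422 bases, and 3 of them had a q-value under 0.05. Peaks of 1 pooled set are not replicates, so these shares are descriptions.

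**Figure D4:**
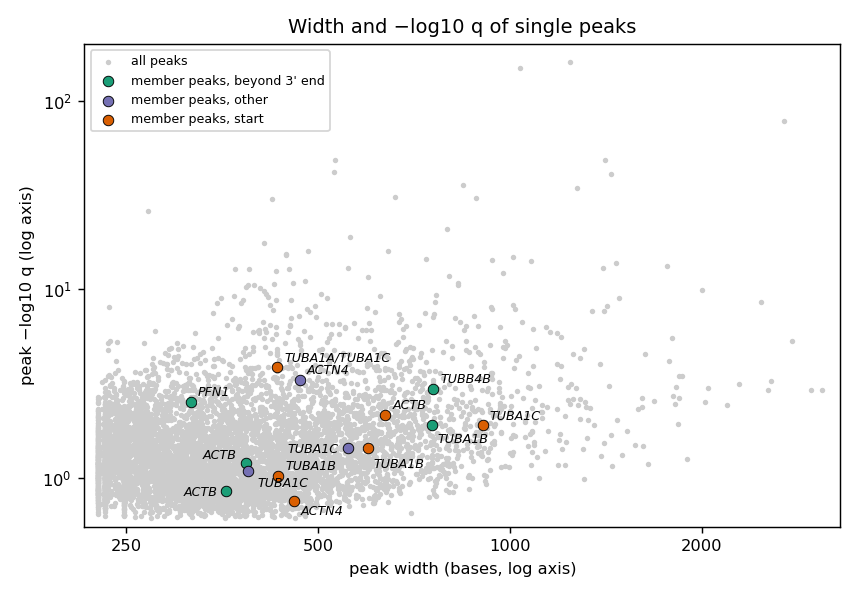
Width in bases (log axis) and −log10 q (log axis) of all 6368 peaks (grey) and the 14 peaks of the 10 genes (members, labelled), coloured by position: at any annotated start, beyond the canonical 3' end, or elsewhere. The 14 peaks lie between 316 and 906 bases and between 0.754 and 3.85, inside the grey cloud and far below its highest value of 161.

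Base composition differed by position at the median, with overlap. The 6 at an annotated start of any gene had a median GC share of 62.9% and a median observed to expected CpG ratio of 0.746 (range 0.660 to 0.882). The 8 away from starts had a median GC share of 50.6% and a median CpG ratio of 0.211. For all peaks the medians were 66.2% and 0.795 at starts, and 50.9% and 0.361 away from them. The lowest ratio, 0.159, was that of the strong ACTN4 intron peak, and the highest was that of the TUBA1A peak. The classes overlapped in the CpG ratio through the second intron peak of TUBA1C, away from starts with 0.809. In GC share, the start peaks at 55.3% (TUBA1B) and 57.6% (TUBA1C) were below the peaks beyond the 3' end at ACTB and TUBB4B, both at 59.9%. Peaks beyond the 3' ends ranged from 0.164 at PFN1 through 0.177 at TUBA1B, 0.221 at ACTB and 0.222 at TUBB4B to 0.314 at the distal ACTB peak.

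**Figure D5:**
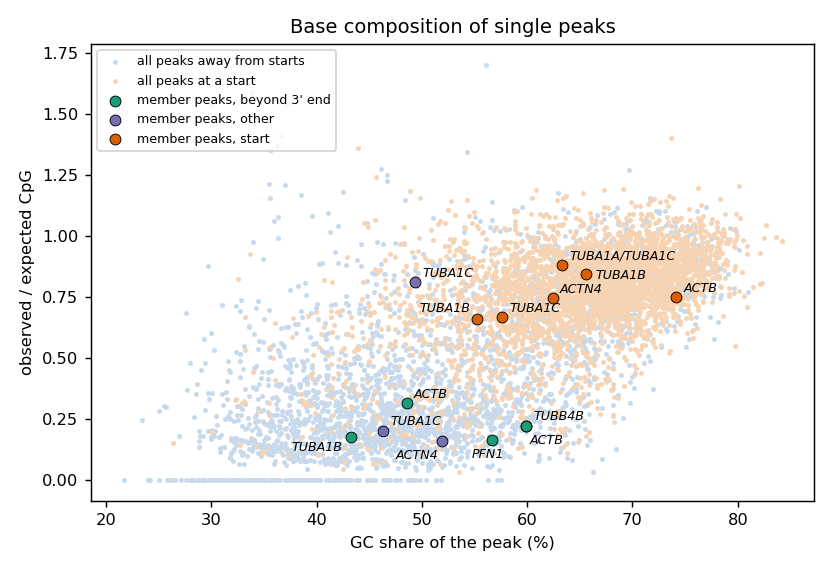
GC share in percent and ratio of observed to expected CpG for every peak, in pale colours by whether it is at an annotated start, with the 14 peaks of the 10 genes (members) labelled. The 6 start peaks lie at ratios of 0.660 and above, whereas the 5 peaks beyond 3' ends lie at 0.314 and below.

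Actin and tubulin genes are known for processed copies elsewhere in the genome. Over canonical transcripts, the share of repeated 31-mers ran from 5.23% at PFN1 to 31.6% at TUBA1B, with 24.8% at TUBB, 15.1% at TUBB4B and 5.81% at CFL1. Genes without a peak (ACTG1, CFL1 and TUBB) fell within the range of those with one. Whether repeated sequence affected where peaks could be called was not tested. More than 10% of the 31-mers were repeated in 2 of the 14 peaks (14.3%, against 6.96% of all peaks). Of the 14 peaks, 8 had no repeated 31-mer, among them those of TUBA1A, PFN1 and TUBB4B, a lower share than over all peaks (82.7%). For the 6 others, the genes sharing most of the repeated 31-mers, listed up to 5 per peak, included no actin or tubulin gene. CALN1, PAK5 and SVOP led at the distal ACTB peak, and SEC24D and CNTLN at the second intron peak of TUBA1C. ACTN4 was the case with a family member, as 8 31-mers of its start peak (1.87%) were shared with ACTN3.

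Short motifs were searched on both strands in the central 226 bases of each peak. TGANTCA occurred in 2 of the 14, the ACTN4 intron peak and the TUBA1C start peak (14.3%, against 8.54% of all peaks). CCAAT, the letters bound by NF-Y, occurred in 4 (28.6%, against 17.7%) and GGGCGG, bound by SP1 factors, in 4 (28.6%, against 36.9%). GGGGG, which can overlap GGGCGG by 3 letters, occurred in 9 (64.3%, against 51.4%). GGACT, a sequence in which m6A is found in RNA, occurred in 7 (50.0%, against 34.9%). No CArG box, the site of the actin gene regulator SRF, was found in the 14, and 0.628% of all peaks held one. Promoters of 300 bases from RefSeq (GRCh38.p14) were matched for 9 of the 10 genes, all but ACTB, whose promoter was therefore not searched. Among those matched, a CArG box was found at ACTG1, which had no peak (1.26% of 21579 promoters). The matched genes had 13 promoters, with 3 at TUBA1C and 2 each at ACTN4 and TUBB, so promoters are not separate genes. CCAAT occurred in 8 of the 13 (61.5%, against 34.9%) and GGGGG in 11 (84.6%, against 65.8%). GGGCGG occurred in 8 (61.5%, against 56.8%), GGACT in 7 (53.8%, against 45.3%) and TGANTCA in 1 (7.69%, against 6.17%). TATAAA, the letters of the TATA box, occurred in 0 (against 9.43%). A match of letters is not a measured site.

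The wider families were compared last. Over all protein-coding genes, 25.1% had a peak and 15.7% had one at a start. The lists are small and no test was made. None of the 17 other actins, alpha tubulins and beta tubulins had a peak, so peaks in these families were at ACTB, TUBA1A, TUBA1B, TUBA1C and TUBB4B only. Of the 4 gamma, delta and epsilon tubulins, which nucleate microtubules or serve centrioles, TUBG2 had a peak (−log10 q 1.57), and this too lay beyond the 3' end, with its midpoint 638 bases past it. Among 16 further genes of actin turnover, 8 had a peak and 7 had one at a start. CFL2, the muscle cofilin, had 3.37 at its start, in contrast to CFL1. TMSB10, which encodes a thymosin that holds actin monomers, had a peak of 1317 bases with 2.38 that overlapped a start window of its own and one of TRABD2A, and TMSB10 and the related TMSB4X also had a peak in the 1000 bases beyond the 3' end.

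Crosslinkers and membrane linkers had a peak at 4 of 18 genes (all protein-coding genes, 25.1%), with 1.07 at ACTN3 and 1.01 at PLS1. Genes of the Arp2/3 complex, its activators and the formins, which start new actin filaments, had a peak at 4 of 14, with 2.72 at ARPC5 and 1.38 at ARPC1B, and at a start in 1. Tropomyosin and myosin genes had a peak at 2 of 10, namely TPM1 (2.41) and TPM4 (1.19). On the microtubule side, 2 of 5 tubulin folding cofactors had a start peak, TBCD (2.24) and TBCA (1.40), as did 4 of 9 microtubule-binding genes, with 2.17 at MAP1B and 1.91 at CLASP1. The CLASP1 peak had its midpoint 118417 bases from the canonical start and overlapped start windows of CLASP1 and RNU4ATAC. Start windows of other genes were also overlapped, of ENSG00000285804 by the MAP1B peak, of ZDHHC24 by the ACTN3 peak and of TPM1-AS by the TPM1 peak. SRF itself had a start peak (2.32, midpoint 148 bases downstream), and MRTFA, its actin-sensing partner, had a peak of 1.23 away from its starts. Across the 96 genes, 20 had a start peak (20.8%, against 15.7% of all protein-coding genes). This is the commonest position for them, whereas 3 had a peak beyond the 3' end.

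With no margin around the genes, 6 genes and 11 peaks remained in place of 7 and 14. The 3 peaks in the margin of 1000 bases were 316 (TUBA1B), 556 (PFN1) and 851 bases (ACTB) from the gene, and the PFN1 peak is the only one of that gene. The nearest peak left out was 3798 bases from ACTN4 (39226027 to 39226252, −log10 q 1.28) and lies at the start of CAPN12.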

How the data were processed

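A549 cells were crosslinked and sonicated, and chromatin was precipitated with an antibody to YTHDC1. The authors aligned the reads of 3 replicates to hg19, pooled them and called broad peaks with MACS2 (q-value 0.1, broad cutoff 0.25). The sources disagree on the aligner (Bowtie2 in the methods, BWA in the submitters' processing notes). The deposited file gives a position and 1 value for each peak, taken here as −log10 of the q-value written by the authors' caller. This is an inference: the lowest value, 0.610, is just over 0.602, the broad cutoff on that scale. Peak names point to a merging step that is not described in the sources used here. Nothing in the labels says that the replicates came from separate cultures.

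Genes came from GENCODE release 44 mapped to GRCh37, and the canonical transcript was the one tagged so by Ensembl. Start and 3' end windows were 200 bases on both sides. Repeated sequence is the share of 31-mers found more than once in the assembly. No test was made, as there is 1 pooled set, and each count stands beside that over all protein-coding genes. The 10 genes, the lists and the positions were chosen with earlier results of these data known. Named beyond the 10 genes were up to 2 genes per list with the highest −log10 q, genes at whose start a peak of the 10 lay, and, after their values were seen, the other actins, TMSB4X, RNF167, FAM166A, CAPN12, TRABD2A, RNU4ATAC, ENSG00000285804, ZDHHC24, TPM1-AS, ENSG00000267375 and the genes sharing repeated sequence. Overlap counting was tested on simulated data. Python 3.11.15, numpy 2.4.6, pandas 2.3.3, numba 0.67.0, pyfaidx 0.9.0.4 and matplotlib 3.10.9 were used.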

Additional observations from a re-analysis of the deposited data

How the results depend on the processing

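Of 42 alternatives, 33 left the value within a set range of that reported. The range was wide. A count of 4 could become 3, and a median could lie from 385 to 755 bases in width or from 1.03 to 2.97 in −log10 q. The median width, 463 bases, was 599 with a q-value under 0.05. The median −log10 q, 1.67, was 2.97 with a −log10 q of at least 2, a filter that raises this median by construction. The number of peaks in the 10 genes, 14, was 9 with a q-value under 0.05 and 5 with a −log10 q of at least 2, and the number of genes with a start peak, 4, was 2 at that stricter value. The single gene with a peak at the 3' end became 2 with any annotated transcript end, 4 with a window of 500 bases, 5 with 1000 bases, 0 when the midpoint had to lie inside and 0 when at least 50% of the peak had to. The number with a peak beyond the 3' end, 4, was 2 with a −log10 q of at least 2. This position and its alternatives were chosen after seeing the data. No paired analysis was possible because the replicates were pooled before peak calling, and no replicate could be left out. Depth, and with it the smallest peak that could be detected, is unknown.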
